A study of Mus musculus with 9 samples.

Results

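The genes described here are 38 mouse genes of striated muscle: the regulators and assembly factors of muscle cells, the proteins of the sarcomere, and proteins that couple excitation to contraction. They were taken by name from a list of muscle genes that was chosen with earlier results of these data known. Every probe set whose platform annotation gives one of their symbols was used. This gave 64 probe sets out of 45037, for 38 genes out of 18193. For 12 of the genes there were several probe sets and for 26 there was 1. A further 2 probe sets name Myh7 together with Myh6 and were not assigned to either. Each gene was counted by its probe set with the highest mean over the 9 arrays.

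The study measured RNA from mouse embryonic fibroblasts (MEFs), primary cultures grown from embryos, to ask how loss of Oga changes expression. Oga encodes O-GlcNAcase, an enzyme that takes O-linked N-acetylglucosamine, a single sugar, off proteins inside the cell. The KO line came from an Oga knockout embryo, the Het line from an embryo with 1 working copy, and the WT line from a wild-type embryo. All 3 lines came from female embryos at E12.5 and were grown in DMEM, a standard culture medium. Their parents were heterozygous mice, themselves bred from C57B1/6 mice with a floxed Oga allele, which Cre recombinase can cut out, and B6129-Tgn(MMTV-Cre)1Mam mice, which carry Cre under the MMTV promoter. The labels do not say whether the lines still carry the MMTV-Cre transgene. Each genotype is represented by 1 line and 3 arrays, which the series describes as technical replicates. The p-values below therefore measure the spread between arrays of a line, and genotype cannot be told apart from any other difference between the 3 lines.

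In striated muscle, contraction is the work of sarcomeres, repeated units in which thin filaments of actin slide along thick filaments of myosin. Calcium released inside the fibre binds troponin on the thin filament and so permits contraction, while Z-discs anchor the thin filaments and the intermediate filament protein desmin ties neighbouring sarcomeres together. Transcription factors of the MyoD family (Myod1, Myf5, Myog and Myf6) switch on this set of genes in skeletal muscle precursors. Fibroblasts do not build sarcomeres, but several of these genes can be active at low level outside striated muscle.

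The deposited values are on a log2 scale, on which a difference of 1 is 2-fold. A gene was called when its limma adjusted p (Benjamini-Hochberg over all 45037 probe sets) was below 0.05 and its difference reached 2-fold. A mean of 6.22, the value that 40% of all probe sets lie below, served as a mark for low values. The most abundant Oga probe set read 6.06 ± 0.026 in KO arrays, 11.16 in each Het array and 11.92 ± 0.033 in WT arrays (SD, n = 3), in the order of the labelled genotypes. Array medians lay between 6.87 and 6.95, and arrays of 1 line correlated at r = 0.997 to 0.999. Actin control probe sets differed between their 3′ and 5′ ends, a sign of RNA quality, by 0.052 to 0.087 in KO, 0.093 to 0.12 in Het and 0.060 to 0.082 in WT arrays. All 13 fibroblast markers had means above the low-value mark. In such bulk cultures fewer cells of a type and less RNA per cell cannot be told apart.

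In the KO line 13 of the 38 genes were called higher than in WT, 0 were called lower and 25 were not called. Over all 18193 genes, 0.753% were called higher and 1.91% lower in this comparison. Because the 38 genes were listed with earlier results of these data known, their share is not an independent test. The 13 were the actin genes Actc1 and Acta1, the troponin genes Tnni1, Tnnt2 and Tnnc1, the myosin genes Myh3, Myl1, Myl4 and Mylpf, the Z-disc gene Ldb3, the desmin gene Des, and Ankrd1 and Klhl30. Their differences ran from 1.06 for Tnnc1 to 1.93 for Klhl30 on the log2 scale. The median difference of the 38 genes was 0.38, against -0.018 for all genes. Over the 26 members at or above the low-value mark it was 1.03, a value that the choice itself raises, since the mean of a gene such as Tnnc2 reaches the mark only with its KO arrays. By adjusted p alone 22 members were higher and 2 were lower, which is 24 of 38, against 34.8% of all genes. At an unadjusted limma p under 0.05 the counts were 25 higher and 2 lower, against 44% of all genes in either direction. The arrays of the KO line held a summed level of the 38 genes of 13.64 to 13.68 on the log2 scale, the Het arrays 12.91 to 13.00 and the WT arrays 12.60 to 12.64, with no overlap between lines. Values were summed before taking the log, so abundant genes such as Ankrd1 and Des weigh most in it. The mean of the log2 values of the 38 genes was 7.08 to 7.13 in KO, 6.75 to 6.82 in Het and 6.45 to 6.50 in WT arrays.

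Of the 38 genes, 12 had a mean over the 9 arrays below the low-value mark, and none of these was called in any of the 3 comparisons. They were Myod1, Myf5, Myf6, Unc45b, Csrp3, Neb, Myh7, Myh8, Mybph, Ttn, Ryr1 and Cav3. Of these, Myod1, Neb, Myh8 and Mybph were higher in KO than in WT by limma adjusted p alone. The other 26 genes were at or above the mark. Among the 13 called genes the WT means of Myh3 (5.68) and Myl1 (6.03) were below the mark, so the sizes of these differences hold for the deposited values only. Probe sets of closely related genes, such as the actins and the myosin heavy chains, can pick up each other's transcripts, which was not tested.

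The promoters of the called genes are shown because these members moved together in the KO line. RefSeq start sites (build GRCm38.p6) were matched by symbol, and windows of 250 bases before the start were found for 31 of the 38 genes, including 12 of the 13 called ones. Each window was searched on both strands for 4 motifs known from muscle promoters: the CArG box, bound by serum response factor, the MCAT motif (CATTCC), bound by TEAD factors, the MEF2 box, and the E-box (CANNTG), bound by the MyoD family among others. The 5 windows below hold a CArG box or an MCAT motif, printed in capitals and in the direction of transcription. On the opposite strand, as in Ankrd1, the capitals of the MCAT motif read GGAATG. In these 5 windows the CArG and MCAT matches overlapped neither each other nor an E-box. They lie at chr2:114052876-114053125 (minus strand) for Actc1, chr8:123894776-123895025 (minus strand) for Acta1, chr14:34588682-34588931 (minus strand) for Ldb3, chr1:135836084-135836333 (plus strand) for Tnnt2 and chr19:36119845-36120094 (minus strand) for Ankrd1. Ldb3 and Tnnt2 have a second annotated start, and the windows printed belong to the start that lies farther upstream.
Actc1: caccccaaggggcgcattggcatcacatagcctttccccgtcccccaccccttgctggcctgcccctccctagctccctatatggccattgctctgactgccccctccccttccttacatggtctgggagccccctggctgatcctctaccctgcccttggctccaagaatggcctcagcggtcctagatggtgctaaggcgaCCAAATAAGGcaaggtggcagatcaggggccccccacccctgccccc
Acta1: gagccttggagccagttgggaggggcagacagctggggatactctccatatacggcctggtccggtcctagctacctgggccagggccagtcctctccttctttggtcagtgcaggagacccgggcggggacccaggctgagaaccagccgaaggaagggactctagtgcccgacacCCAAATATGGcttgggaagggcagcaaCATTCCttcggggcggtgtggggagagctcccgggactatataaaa
Ldb3: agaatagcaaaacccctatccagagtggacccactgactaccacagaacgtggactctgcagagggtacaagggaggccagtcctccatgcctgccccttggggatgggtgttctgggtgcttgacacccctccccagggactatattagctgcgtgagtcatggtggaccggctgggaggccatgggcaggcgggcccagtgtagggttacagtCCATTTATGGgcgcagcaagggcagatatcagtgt
Tnnt2: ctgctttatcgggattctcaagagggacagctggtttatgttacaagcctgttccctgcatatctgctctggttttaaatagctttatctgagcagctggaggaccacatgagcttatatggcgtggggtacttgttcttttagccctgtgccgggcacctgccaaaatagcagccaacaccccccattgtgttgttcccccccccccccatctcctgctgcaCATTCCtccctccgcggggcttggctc
Ankrd1: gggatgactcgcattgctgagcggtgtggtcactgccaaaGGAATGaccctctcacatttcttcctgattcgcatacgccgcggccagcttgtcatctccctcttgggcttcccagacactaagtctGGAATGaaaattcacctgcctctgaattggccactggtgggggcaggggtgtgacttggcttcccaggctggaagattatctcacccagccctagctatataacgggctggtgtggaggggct

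**Figure D1:**
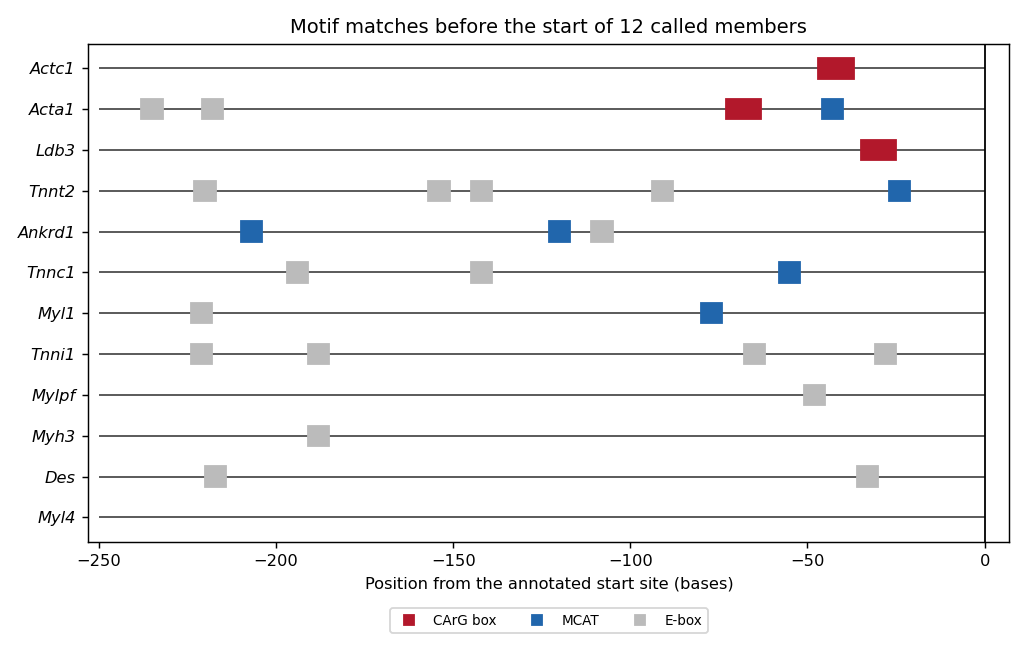
Motif matches in the 250 bases before the RefSeq start site of 12 genes called higher in the KO line (x axis: position from the start in bases; 1 row per gene; red: CArG box, blue: MCAT, grey: E-box). CArG boxes lie within 73 bases of the start drawn for Actc1, Acta1 and Ldb3 (for Ldb3 and Tnnt2 the upstream start), MCAT motifs are seen in Acta1, Tnnt2, Ankrd1, Tnnc1 and Myl1, and Myl4 has none of these motifs.

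A CArG box was found in 3 of the 12 called genes with a window, at 47 to 38 bases before the start of Actc1, 73 to 64 bases before that of Acta1 and 35 to 26 bases before the upstream start of Ldb3, which is 109 to 100 bases before its other annotated start. It was found in 0 of the 19 other members with a window, and in 1.47% of all 32851 windows. The MCAT motif was present in 5 called genes (Acta1, Ankrd1, Myl1, Tnnc1 and Tnnt2) and in 3 of the 19 others (Mef2c, Mybph and Myh7), against 12.6% of all windows. In Tnnt2, Mef2c and Myh7 it was not in every window. Ankrd1 held it at 210 to 205 and again at 123 to 118 bases before the start. The MEF2 box was in 0 of the 12 called genes and in 3 of the 19 others (Casq2, Myh8 and Ttn), against 2.92% of all windows. E-boxes, which are short and common, were in 9 of 12 called genes and 16 of 19 others, and in 66.2% of all windows. The 31 members with a window had 38 windows, and a gene was counted when any of its windows held the motif. Counts of genes and shares of single windows are therefore unlike units. The matches describe letters in the windows and not binding in these cells.

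Of 10 thin filament genes 5 were called higher in KO than in WT, with a median difference of 0.94, against 4 of 8 thick filament genes. The share called higher among all genes was 0.753%. At a limma adjusted p under 0.05 alone, 7 thin filament genes were higher and 1 lower, or 80% against 34.8% of all genes. Actc1, the actin of the heart and of embryonic skeletal muscle, read 8.61, 8.63 and 8.58 in the KO arrays, 8.21, 8.21 and 8.33 in the Het arrays and 6.84, 6.87 and 7.02 in the WT arrays. The KO arrays were the highest, every Het array lay well above every WT array, and the 3 lines did not overlap. Actc1 was 3.24-fold higher in KO than in WT (log2 difference 1.69 ± 0.060, SE, limma adjusted p = 1.53e-08) and 2.52-fold higher in Het than in WT (1.34 ± 0.060, limma adjusted p = 1.22e-06). Acta1, the actin of adult skeletal muscle, read 9.58, 9.66 and 9.65 in the KO arrays, 8.81, 8.77 and 8.82 in the Het arrays and 8.08, 7.99 and 8.00 in the WT arrays. Here the Het arrays stood near the middle of the KO and WT arrays, with gaps on either side. Its KO minus WT difference was 1.61 ± 0.049 (SE, limma adjusted p = 5.77e-09), a 3.05-fold higher level.

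Among the troponins, the slow muscle inhibitory subunit gene Tnni1 showed the largest difference. It read 8.87, 8.83 and 8.96 in the KO arrays, 7.78, 7.78 and 8.01 in the Het arrays and 7.09, 7.17 and 6.92 in the WT arrays, so the lines stood in the order KO, Het, WT without overlap. KO exceeded WT by 1.83 ± 0.081 (SE, limma adjusted p = 7.41e-08), or 3.55-fold. Tnnt2, the cardiac gene of the subunit that binds tropomyosin, is also used in embryonic skeletal muscle. It read 8.72, 8.58 and 8.65 in the KO arrays, 7.36, 7.53 and 7.62 in the Het arrays and 7.23, 7.10 and 7.28 in the WT arrays. The KO arrays stood apart from the rest, while the Het arrays lay just above the WT arrays. The KO minus WT difference of Tnnt2 was 1.45 ± 0.075 (SE, limma adjusted p = 2.22e-07). A second Tnnt2 probe set gave 1.61, but the remaining one, with a mean below the low-value mark, gave 0.11 (limma adjusted p = 0.264). The remaining one is also the only one that is unmarked, meaning that its name lacks the suffix a, s or x. Which transcripts the marked and unmarked probe sets detect was not tested.

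Tnnc1, the calcium-binding subunit of slow and cardiac muscle, read 8.50, 8.38 and 8.55 in the KO arrays, 8.20, 8.40 and 8.35 in the Het arrays and 7.50, 7.31 and 7.43 in the WT arrays. KO and Het arrays overlapped and all 6 were above the WT arrays. It exceeded WT by 1.06 ± 0.073 in KO (SE, limma adjusted p = 1.85e-06) and by 0.90 in Het, which was short of 2-fold. Its fast muscle counterpart Tnnc2 differed by 0.82 between KO and WT (limma adjusted p = 4.35e-06), also short of 2-fold. Of the other fast muscle subunits, Tnni2 was lower by adjusted p alone (-0.24, limma adjusted p = 0.0378, with -0.58 and -0.15 at its other probe sets), and Tnnt3 differed by -0.058 (limma adjusted p = 0.724). The slow subunit gene Tnnt1 differed by -0.041 (limma adjusted p = 0.734), and Neb, which encodes the thin filament ruler nebulin, by 0.32 at a mean below the low-value mark.

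**Figure D2:**
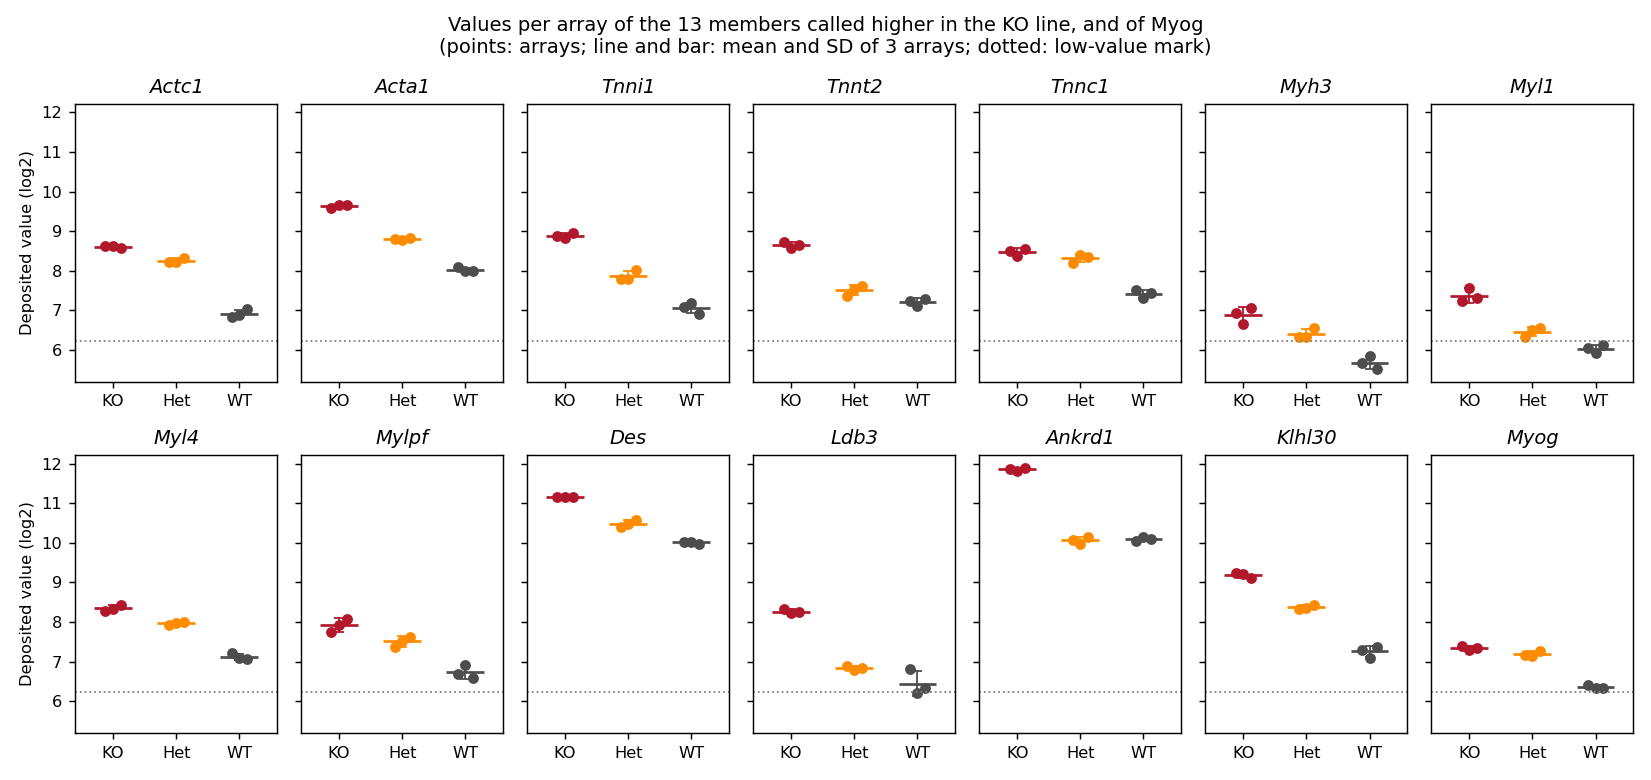
Deposited log2 values (y axis) of the 13 genes called higher in the KO line and of Myog, 1 panel per gene, with the 3 arrays of the KO, Het and WT lines as points, the mean as a line and the SD as a bar, and the low-value mark of 6.22 dotted. In all 14 panels the KO arrays lie above the WT arrays, and the Het arrays lie close to WT for Ankrd1, Ldb3 and Tnnt2 and close to KO for Tnnc1 and Myog.

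Of 8 thick filament genes 4 were called higher in KO than in WT, against 0.753% of all genes, with a median difference of 0.81 over the 8. At a limma adjusted p under 0.05 alone, 6 were higher and 0 lower, or 75% against 34.8% of all genes. Myh3, the myosin heavy chain of embryonic muscle, read 6.92, 6.64 and 7.05 in the KO arrays, 6.33, 6.33 and 6.55 in the Het arrays and 5.67, 5.84 and 5.52 in the WT arrays. All WT arrays were below the low-value mark, and the KO arrays were above all Het arrays. The difference between KO and WT was 1.20 ± 0.11 (SE, limma adjusted p = 2.06e-05). Neither the perinatal heavy chain gene Myh8 (0.24, limma adjusted p = 0.0492) nor the slow and cardiac one, Myh7 (-0.35, limma adjusted p = 0.166), was called, and both had low means.

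The 3 called light chain genes encode small myosin subunits that sit on the neck of the heavy chain. Myl1, an essential light chain of fast muscle, read 7.22, 7.57 and 7.32 in the KO arrays, 6.33, 6.49 and 6.55 in the Het arrays and 6.04, 5.92 and 6.12 in the WT arrays. The KO arrays were separate from the others, and the Het arrays were above the WT arrays by a smaller gap. KO exceeded WT by 1.34 ± 0.094 (SE, limma adjusted p = 2.06e-06). Myl4, the essential light chain of embryonic muscle and of the atrium, read 8.29, 8.32 and 8.43 in the KO arrays, 7.94, 7.96 and 8.01 in the Het arrays and 7.21, 7.09 and 7.07 in the WT arrays. Here the Het arrays were closer to the KO than to the WT arrays, without overlap. Its KO minus WT difference was 1.22 ± 0.058 (SE, limma adjusted p = 1.15e-07), whereas a second Myl4 probe set gave 0.044, and the mean of the 2 probe sets, 0.63, was not called. Mylpf, the regulatory light chain of fast muscle, read 7.75, 7.94 and 8.08 in the KO arrays, 7.37, 7.53 and 7.63 in the Het arrays and 6.68, 6.93 and 6.59 in the WT arrays. Again the lines stood in the order KO, Het, WT. It rose by 1.19 ± 0.11 in KO over WT (SE, limma adjusted p = 1.43e-05). Of the remaining thick filament genes, Mybph, which encodes a myosin-binding protein, was higher in KO by 0.43 (limma adjusted p = 0.000245), short of 2-fold. The most abundant of 6 probe sets of Ttn, the gene of the giant spring protein titin, differed by 0.21 (limma adjusted p = 0.192).

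Of 5 genes of the Z-disc, desmin and creatine kinase, Ldb3 and Des were called higher in KO than in WT, against 0.753% of all genes. The median difference was 0.44. At a limma adjusted p under 0.05 alone, 3 were higher and 0 lower, or 60% against 34.8% of all genes. Ldb3, whose protein holds α-actinin at the Z-disc, read 8.33, 8.22 and 8.24 in the KO arrays, 6.88, 6.80 and 6.83 in the Het arrays and 6.80, 6.21 and 6.32 in the WT arrays. The KO arrays stood far above all others, while 1 WT array reached into the range of the Het arrays. The KO minus WT difference was 1.82 ± 0.12 (SE, limma adjusted p = 1.7e-06), and the other 2 Ldb3 probe sets gave 0.62 and 0.24, with a mean over the 3 of 0.89 that was not called. Des, whose product desmin is found in skeletal, cardiac and smooth muscle and in pericytes, read 11.17, 11.16 and 11.17 in the KO arrays, 10.42, 10.48 and 10.58 in the Het arrays and 10.03, 10.04 and 9.97 in the WT arrays. The lines did not overlap, and the Het arrays were nearer to WT than to KO. KO exceeded WT by 1.15 ± 0.052 (SE, limma adjusted p = 7.95e-08), but a second probe set at a low level gave 0.046, and their mean, 0.60, was not called. The muscle α-actinin genes Actn2 (0.44, limma adjusted p = 0.000706) and Actn3 (-0.19, limma adjusted p = 0.131) and the muscle creatine kinase gene Ckm (0.21, limma adjusted p = 0.0806) were not called.

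Genes of excitation were not called: 0 of 4, with a median difference between KO and WT of 0.34. By limma adjusted p alone 2 of them were higher, and 3 at an unadjusted p under 0.05. These shares are 50% and 75%, against 34.8% and 44% of all genes in either direction. Casq2, which encodes a calcium store protein, was higher by 0.64 ± 0.050 (SE, limma adjusted p = 4.57e-06), and Chrna1, a subunit gene of the muscle acetylcholine receptor, by 0.43 ± 0.073 (limma adjusted p = 0.00121). The calcium release channel gene Ryr1 (0.13, limma adjusted p = 0.458) and the muscle caveolin gene Cav3 (0.25, limma adjusted p = 0.0839) had low means.

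Of the 11 regulators and assembly factors, Klhl30 and Ankrd1 were called higher in KO than in WT, none was called lower, and the median difference was 0.14. By limma adjusted p alone 4 were higher and 1 was lower, and at an unadjusted p under 0.05, 5 and 1. In both directions together these are 45.5% and 54.5% of the 11, against 34.8% and 44% of all genes. Ankrd1, an ankyrin repeat protein that binds titin and also acts in the nucleus, read 11.88, 11.83 and 11.90 in the KO arrays, 10.09, 9.98 and 10.16 in the Het arrays and 10.06, 10.16 and 10.11 in the WT arrays. The Het arrays overlapped the WT arrays, and the KO arrays stood clear of both. Ankrd1 was 3.39-fold higher in KO than in WT (1.76 ± 0.057, SE, limma adjusted p = 8.04e-09) and its second probe set gave 1.89. At that second probe set the Het arrays lay above the WT arrays without overlap, by 0.29 (limma adjusted p = 0.00439). Klhl30, a Kelch-family gene, read 9.24, 9.21 and 9.10 in the KO arrays, 8.34, 8.35 and 8.44 in the Het arrays and 7.30, 7.10 and 7.38 in the WT arrays. Each line was separate, with the Het arrays between the other lines. Its KO minus WT difference, 1.93 ± 0.074 (SE, limma adjusted p = 2.46e-08), was the highest of the 38 genes.

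Of the MyoD family, Myog alone had a mean above the low-value mark. Myog, which drives the final steps of muscle differentiation, read 7.40, 7.30 and 7.35 in the KO arrays, 7.16, 7.15 and 7.27 in the Het arrays and 6.40, 6.34 and 6.33 in the WT arrays. Both KO and Het arrays were above the WT arrays, and the lowest KO array was above the highest Het array. The KO minus WT difference was 0.99 ± 0.053 (SE, limma adjusted p = 2.73e-07), just short of 2-fold. It passed 2-fold after quantile normalization (1.01), after centring the array medians, and without KO replicate 2 (1.02) or WT replicate 1 (1.01).

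The other 3 MyoD family genes were low. Myod1, which commits cells to the muscle lineage, read 6.05, 6.30 and 6.29 in the KO arrays, 6.13, 6.13 and 6.13 in the Het arrays and 6.08, 5.88 and 5.82 in the WT arrays. The 3 Het arrays hold the same deposited value, and the KO and WT arrays overlapped. Equal values were not particular to Myod1: in any pair of arrays 1.93% to 4.54% of all probe sets held the same value. How such ties affect the spread between arrays was not tested. The KO minus WT difference of Myod1 was 0.28 ± 0.082 (SE, limma adjusted p = 0.0251). Myf5, an early factor of the same family, read 3.82, 3.83 and 3.79 in the KO arrays, 3.82, 3.82 and 3.71 in the Het arrays and 3.89, 4.04 and 3.73 in the WT arrays. All 3 lines overlapped (KO minus WT -0.073, limma adjusted p = 0.509). Myf6, which acts late in differentiation, read 4.39, 4.37 and 4.23 in the KO arrays, 4.23, 4.34 and 4.22 in the Het arrays and 4.06, 4.23 and 4.15 in the WT arrays. These arrays overlapped between all lines as well, with a KO minus WT difference of 0.18 (limma adjusted p = 0.0573).

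Mef2c, a partner of the MyoD family that is also active outside muscle, went the other way. It read 9.59, 9.43 and 9.52 in the KO arrays, 9.78, 9.83 and 9.79 in the Het arrays and 10.00, 9.98 and 9.92 in the WT arrays. Every KO array was below every Het array, and every Het array below every WT array. The KO minus WT difference was -0.45 ± 0.053 (SE, limma adjusted p = 9.46e-05), short of 2-fold, and all 5 of its probe sets were lower in KO than in WT, by -0.49 to -0.31. Between Het and WT its probe sets differed in direction, from -0.17 at the most abundant to 0.25 at another. The remaining regulators were not called. Cdh15, the muscle cadherin gene, differed by -0.0031, Smyd1, a methyltransferase gene needed for sarcomere assembly, by 0.092, Csrp3, a LIM protein gene of the Z-disc, by 0.14, and Unc45b, a myosin chaperone gene, by -0.065.

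**Figure D3:**
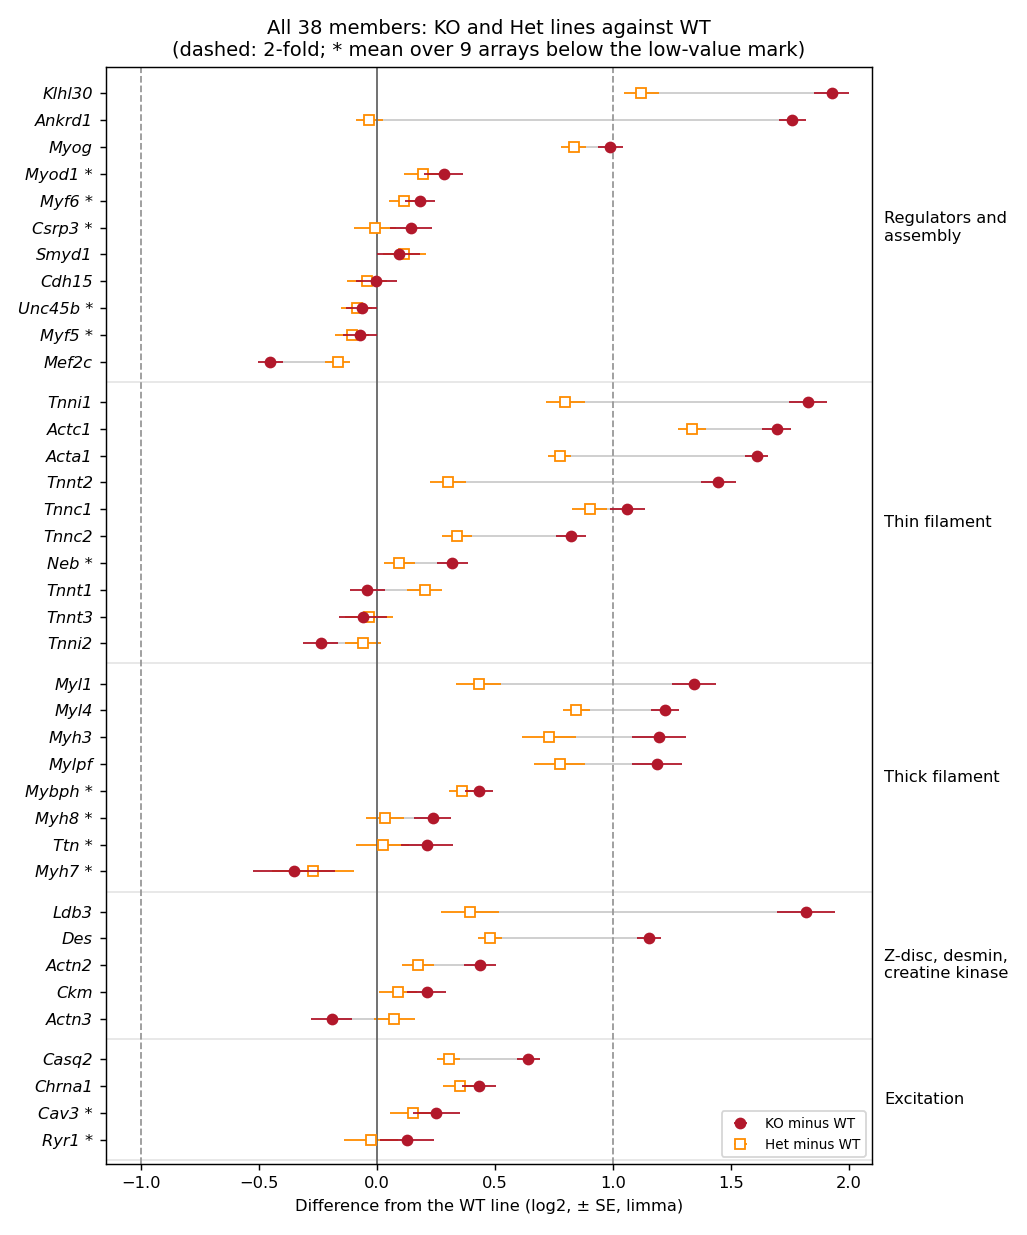
Differences of the KO line (filled circles) and of the Het line (open squares) from the WT line for all 38 genes, in log2 with SE (x axis), grouped by role and ordered by the KO minus WT difference, with 2-fold dashed and genes of low mean starred. Of the 13 genes beyond 2-fold in KO, 5 are of the thin filament and 4 of the thick filament, and no gene lies beyond 2-fold on the lower side.

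In the Het line 2 of the 38 genes, Actc1 and Klhl30, were called higher than in WT and 0 were called lower. Over all genes 0.0385% were called higher and 0.159% lower. Klhl30 was 2.17-fold higher in Het (1.12 ± 0.074, SE, limma adjusted p = 1.11e-05). The median over the 38 genes was 0.19 (0.35 over the 26 of higher mean), against -0.0048 for all genes. The choice of the 26 used these same arrays, so the 0.35 is no independent support. By adjusted p alone 17 genes were higher and 1 was lower in Het, a total of 18, against 19.8% of all genes. At an unadjusted limma p under 0.05 the counts were 20 and 1, against 31.7% of all genes. Tnnc1 (0.90), Myl4 (0.85), Myog (0.83), Tnni1 (0.80), Mylpf (0.78), Acta1 (0.77) and Myh3 (0.73) came next in size and were short of 2-fold.

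Between the KO and Het lines 4 genes were called higher in KO, Ankrd1, Ldb3, Tnnt2 and Tnni1, and 0 were called lower. Over all genes 0.5% were called higher and 0.995% lower. Ankrd1 exceeded Het by 1.79 ± 0.057 (SE, limma adjusted p = 1.84e-08), Ldb3 by 1.42 ± 0.12 (limma adjusted p = 1.69e-05) and Tnnt2 by 1.15 ± 0.075 (limma adjusted p = 2.18e-06). Tnni1 stood at the threshold, with 1.03 ± 0.081 (SE, limma adjusted p = 8.31e-06), and at 0.99 it lost the call without Het replicate 1, Het replicate 2 or KO replicate 3. With the mean of each gene's probe sets Tnnt2 (0.82) and Ldb3 (0.80) lost it too, and the unmarked Tnnt2 probe set, of low mean, gave 0.094. The median over the 38 genes was 0.16 (0.35 over the 26 of higher mean, again chosen with these same arrays), against -0.016 for all genes. By adjusted p alone 16 of the 38 were higher and 3 lower, 19 in all, against 32.1% of all genes. At an unadjusted limma p under 0.05 the counts were 18 and 4, against 41.5% of all genes. These comparisons share arrays with the others, so their values are given side by side and are not independent of each other.

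**Figure D4:**
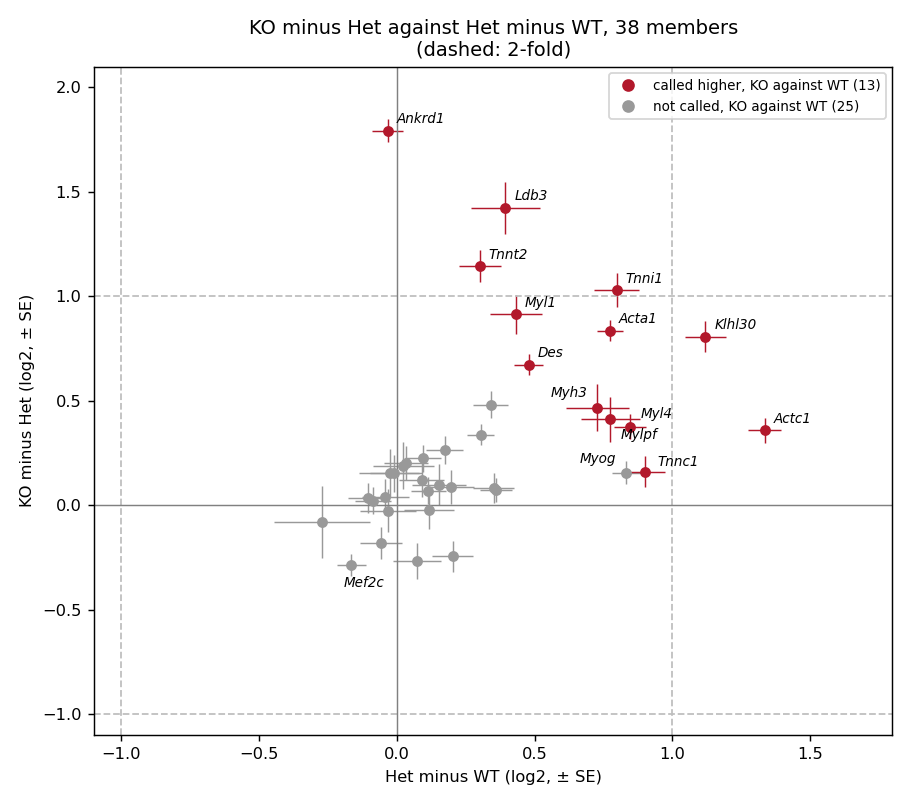
KO minus Het (y axis) against Het minus WT (x axis) for the 38 genes, in log2 with SE, with 2-fold dashed and the 13 genes called between KO and WT in red. At its most abundant probe set Ankrd1 lies at 1.79 by -0.033, with all of its KO minus WT difference between KO and Het. Its second probe set, not drawn, gave 1.59 by 0.29. Actc1 lies at 0.36 by 1.34 and Tnnc1 at 0.16 by 0.90.

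The place of the Het line between the other lines differed from gene to gene in the plot of these differences. Each Het mean was tested in the same limma fit against the midpoint of the KO and WT means, a contrast chosen after the values had been seen. Of the 38 genes 8 passed at an adjusted p under 0.05, a share close to the 22.7% of all genes, so the count itself is no result about these genes. The Het line lay below the midpoint, on the WT side, for Ankrd1 (-0.91, limma adjusted p = 3.5e-06), Ldb3 (-0.52, 0.00671) and Tnnt2 (-0.42, 0.00126). It lay above the midpoint, on the KO side, for Actc1 (0.49, limma adjusted p = 0.000162), Tnnc1 (0.37, 0.00226), Myog (0.34, 0.000607) and Myl4 (0.23, 0.00756). Tnnt1, whose KO and WT means differed by only -0.041, was also above it (0.22, limma adjusted p = 0.0311). Of the other called genes, Acta1 (-0.031), Des (-0.10), Tnni1 (-0.12), Myh3 (0.13), Klhl30 (0.16), Mylpf (0.18) and Myl1 (-0.24) did not pass.

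Of 76 other skeletal muscle genes 69 were measured, and Myom1, which encodes the M-band protein myomesin (1.44), and Fbxo32, which encodes the atrophy ubiquitin ligase atrogin-1 (1.09), were called higher in KO than in WT. None was called lower, the median difference was 0.07, and 30 of the 69 had low means. By limma adjusted p alone 22 were higher and 2 lower, and at an unadjusted p under 0.05 these counts were 24 and 2. Taken in both directions, these are 34.8% and 37.7% of the 69, against 34.8% and 44% of all genes. The totals are therefore no result about these genes. The split by direction was unlike that of all genes, of which 2562 were higher and 3772 lower by adjusted p alone. Of 14 cardiac genes 0 were called in limma, with a median of 0.0098 and Nppb (0.70) and Hand2 (-0.63) as the largest differences. At an unadjusted p under 0.05, 1 was higher and 3 were lower, or 28.6% against 44% of all genes. In Het against WT 0 of the 69 were called, with 14 higher and 5 lower at an unadjusted limma p under 0.05, or 27.5% against 31.7% of all genes. Between KO and Het, Fbxo32 and the dystrophin gene Dmd were called at 1.04 each. Both sat at the threshold: Fbxo32 fell short without Het replicate 1 (0.98) or KO replicate 3 (0.99), and Dmd without KO replicate 1 (0.98) or with the mean of its probe sets (0.60).

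Markers of other cells also differed between the lines. Of 17 smooth muscle and pericyte genes 4 were called higher in KO than in WT and 0 lower (median 0.47): Rgs5 (2.13), Cnn1 (1.65), Mcam (1.35) and Synpo2 (1.24, or 0.60 and not called with the mean of its probe sets). At an unadjusted limma p under 0.05, 14 of the 17 were higher and 2 lower, or 94.1% against 44% of all genes. The summed level of the 17 was 16.76 to 16.77 in KO, 16.48 to 16.50 in Het and 16.23 to 16.26 in WT arrays on the log2 scale. Of 12 genes of serum response factor, its cofactors and targets, 2 were called higher, with a median of 0.46. They were the cofactor gene Myocd (1.65, or 0.87 and not called with the mean of its probe sets) and Filip1l (1.11). At a limma adjusted p under 0.05 alone, 9 of the 12 were higher and 1 lower, or 83.3% against 34.8% of all genes. Of 15 tropomyosin and non-muscle contractile genes 0 were called and 11 were higher by limma adjusted p alone, with a median of 0.32 and the largest differences in Myl6 (0.64) and Myl9 (0.63). At an unadjusted p under 0.05, 12 of the 15 were higher and 0 lower. These shares are 73.3% and 80%, against 34.8% and 44% of all genes in either direction.

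Of 15 macrophage markers all were called, at their most abundant probe sets, lower in KO than in WT, against 1.91% of all genes. The median was -1.76, led by Cd68 (-2.63), Mpeg1 (-2.02) and Lyz2 (-1.89). In Het against WT 0 of the 15 were called, and 12 were lower by limma adjusted p alone, or 80% against 19.8% of all genes. The summed level of the 15 was 14.02 to 14.09 in KO, 15.50 to 15.58 in Het and 15.82 to 15.86 in WT arrays, and none had a mean below the low-value mark. With the mean of each gene's probe sets Cd53 (-0.86), Ptprc (-0.91) and Laptm5 (-0.78) were not called. With unmarked probe sets preferred, Laptm5 turned to 0.016 (limma adjusted p = 0.925) and Ptprc was not called at -0.066 (limma adjusted p = 0.573). Of 13 fibroblast markers Pdgfra (-2.55) and Lum (-2.42) were called lower and 0 higher. At an unadjusted limma p under 0.05, 6 were lower and 1 higher, or 53.8% against 44% of all genes. The summed level of the 13 was 17.51 to 17.56 in KO, 17.58 to 17.60 in Het and 17.64 to 17.65 in WT arrays. The part of the macrophage, fibroblast and smooth muscle differences in those of the sarcomere genes was not tested.

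**Figure D5:**
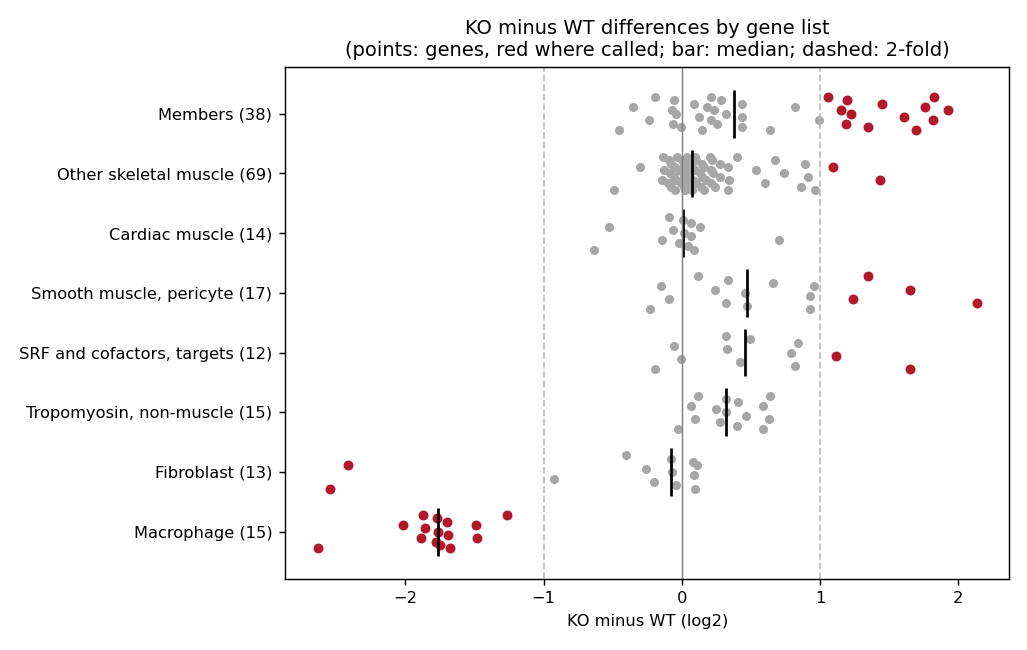
KO minus WT differences in log2 (x axis) of the 38 genes and of 7 lists of other genes (rows, with the number measured), 1 point per gene, red where called, with the median of each list as a bar and 2-fold dashed. The sarcomere and skeletal muscle genes have a median of 0.38 and 13 called genes on the higher side, the other skeletal muscle genes a median of 0.07 and the macrophage markers a median of -1.76.

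By position, 5 of the 13 called genes (Des, Klhl30, Myl1, Tnni1 and Tnnt2) are on chromosome 1, which holds 7 of the 38 members and 5.93% of the measured genes. On chromosome 7, which holds 8 members, only Mylpf was called. Tnni1 and Tnnt2 lie close together, with Lad1 as the 1 measured gene between them. The genes beside this pair were higher in KO than in WT by adjusted p alone, short of 2-fold, and so were not called. Phlda3 differed by 0.53 (limma adjusted p = 3.02e-05), Lad1 by 0.30 (0.0147) and Pkp1 by 0.53 (0.00184). The mean of Lad1 was below the low-value mark in each line. Elsewhere on chromosome 1, Lancl1 (-0.45) and Acadl (-0.24) beside Myl1 and Scly (-0.20) beside Klhl30 were lower by adjusted p alone. Speg (0.33) and Dnpep (0.20) beside Des were higher, and Ilkap beside Klhl30 differed by 0.0565 (limma adjusted p = 0.563). Of 25 measured neighbours of the called genes that are no members, 0 were called, with 7 higher and 4 lower by limma adjusted p alone. Over all genes 0.753% were called higher and 1.91% lower, and 34.8% passed by adjusted p alone. The differences of the 25 ran from -0.45 to 0.53, with a median of 0.033.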

How the data were processed

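Biotin-labelled RNA from 9 samples, 3 for each of the KO, Het and WT lines, was hybridised to Affymetrix arrays, per the labels' protocols. The authors deposited 1 table of log2 values for 45101 probe sets. GCOS and Partek are named in the submitters' processing notes, but background correction, normalization and summarization are not given in the sources used here. The 64 control probe sets were left out. Of the others 34945 carried 1 gene symbol in the platform annotation, 932 several and 9160 none, and only those with 1 were named.

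Differences were fitted with limma 3.58.1 in R 4.3.3 (lmFit and eBayes, all 9 arrays, 3 lines) without a filter on low values, and the steps were tested on simulated data. Member and marker lists and the rule for named genes (members called in a comparison and the MyoD family with Mef2c in full, other genes by size) were chosen with earlier results of these data known. Of the marker names 6 were matched through synonyms, and Vcl is in 2 lists. Arrays with the same replicate number mostly did not deviate together: of 9 correlations of deviations 2 were over 0.1 (range -0.15 to 0.30). These were KO with WT at replicate 1 (0.30) and KO with Het at replicate 3 (0.16). No block was used in the main fit. Alternatives covered normalization, centring, filters, choice of probe sets, fold minimum, a replicate block, variance settings and each array left out. Arrays give no read depth, so the number of arrays limits the precision. Figures used matplotlib 3.10.9 in Python 3.11.15.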

Additional observations from a re-analysis of the deposited data

How the results depend on the processing

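In KO against WT 13 of the 38 genes were called, in Het against WT 2 and in KO against Het 4. Leaving out 1 array at a time gave 13 to 14, 2 to 2 and 3 to 4, and the replicate block gave 13, 2 and 4, changing none of these counts. With a 1.5-fold minimum 16, 9 and 8 genes were called, and with none 24, 18 and 19. With the mean of each gene's probe sets the counts were 10, 2 and 2, and with unmarked probe sets preferred the first was 12. Over all probe sets 838, 111 and 474 were called, with ranges of 832 to 846, 105 to 126 and 463 to 497 over left-out arrays. These counts were 462, 33 and 259 with 1 filtered probe set per gene, 2552, 1004 and 1854 at 1.5-fold, and 13038, 9479 and 11975 with no fold minimum. Without the lowest 40% of probe sets the median over the 26 members left was 1.03, 0.35 and 0.35. This filter uses the mean over all 9 arrays, so a gene such as Tnnc2 passes only with its KO arrays. These medians are therefore no independent check. With unmarked probe sets the KO minus WT difference of the macrophage gene Laptm5 reversed to 0.016 (limma adjusted p = 0.925), and Ptprc was not called (-0.066). With the mean of probe sets Cd53 (-0.86), Ptprc (-0.91) and Laptm5 (-0.78) were not called. The causes were not tested. Quantile normalization or centring moved the median of all probe sets by at most 0.052. Signal over background is not given in the deposited table, so differences of genes below the low-value mark hold for the deposited values only.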
